A study of Mus musculus with 2 samples.

Results

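Fibroblast growth factor (FGF) signalling was examined through 38 genes in mouse gonad-mesonephros complexes, the embryonic gonad with the mesonephric kidney still attached. The genes were taken by symbol: every Fgf ligand gene, the receptor genes Fgfr1 to Fgfr4 and Fgfrl1, the Sprouty (Spry) and Spred genes, and Dusp6, Il17rd, Etv4 and Etv5. They were read by 86 probe sets, each with exactly 1 gene symbol, of 45101 on the array, and make up 38 of 18193 genes represented. All complexes came from XX embryos of stage E12.5. RNA of wild-type embryos was hybridised to 1 array and RNA of Gata4ki/ki embryos to another, and for the latter the strain C57Bl/6 was stated. The labels give no strain for the wild-type embryos, and each array carried total RNA of 6 pairs of complexes. Gata4ki is a knock-in allele that weakens the binding of the zinc finger factor GATA4 to its FOG cofactors, and embryos of the mutant group are homozygous for it. With 1 array per group there is no replicate error and no test for any difference below, and every value describes these arrays alone.

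FGF ligands are secreted proteins that bind FGF receptor tyrosine kinases together with heparan sulphate chains on the cell surface. The activated receptor signals through adaptor proteins, RAS and the kinase ERK to ETS transcription factors, and the pathway switches on its own inhibitors, so that Sprouty, Dusp6 and Etv transcripts are widely used as readouts of FGF activity. In the mouse gonad, FGF9 acts in the XY sex to sustain Sox9 and to oppose the ovarian ligand Wnt4, and in the mesonephros and kidney FGF receptors act in duct outgrowth and tubule formation.

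Values are MAS5 signals, the summary of brightness of a probe set on a linear scale. A floor was set at a signal of 24.0, the median over both arrays, because lower values have no reliable order. A gene was measured when its brightest probe set exceeded the floor on at least 1 array, log2 ratios are Gata4ki/ki minus wild type after the floor, and where 1 of the arrays did not exceed the floor the ratio is a bound. Of the 38 genes 23 were measured, 60.5% against 67.6% of all genes represented. Each of the 5 receptors, 9 feedback inhibitors and 2 ETS factors was measured, whereas 7 of the 22 ligand-named genes were.

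**Figure D1:**
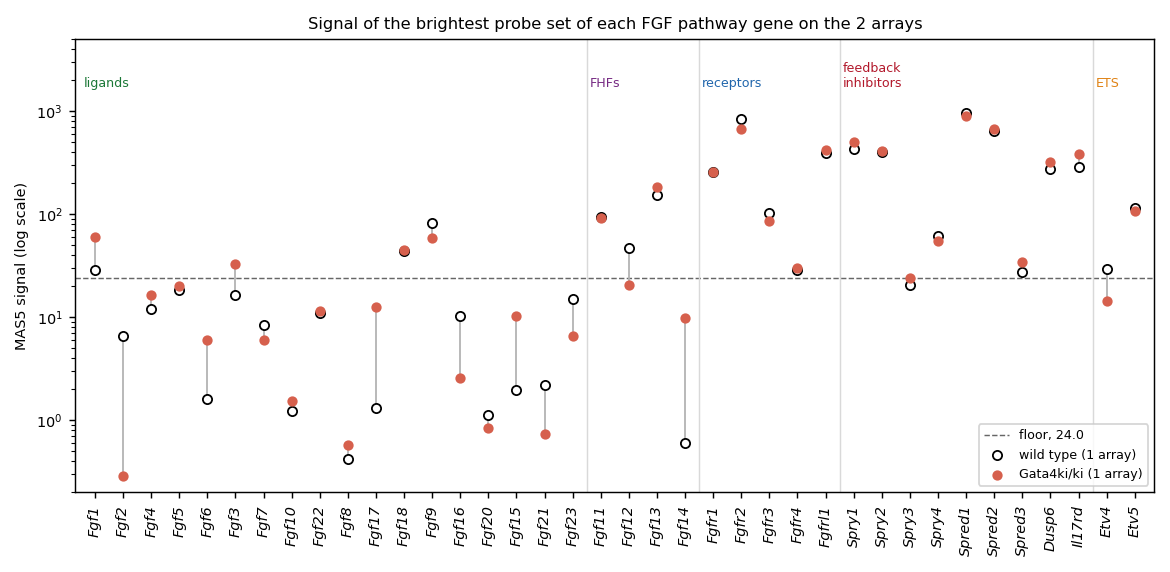
MAS5 signal (log scale) of the brightest probe set of each of the 38 genes on the wild-type array (open circles) and the Gata4ki/ki array (filled circles), ordered by role, with FHFs standing for the intracellular FGF homologous factors. The dashed line is the floor of 24.0. All receptors and feedback inhibitors reach the floor on at least 1 array, while 14 of 18 secreted ligands stay under it on both.

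Most measured FGF transcripts had close signals on both arrays. The median log2 ratio of the 23 measured genes was 0.02, against 0.01 over the 12300 measured genes of the array. After the floor, 21 of the 23 lay within 1.5-fold, or 91.3% against 93.3% of all measured genes. Of the 23 ratios 4 were bounds (Fgf3, Fgf12, Spry3 and Etv4), which do not show how far apart the signals were. With the floor at the 40th percentile, Fgf3 had a ratio of 0.99 and Etv4 one of -1.02. A single member, Fgf1, was at least 2-fold higher in Gata4ki/ki, where 0.846% of all measured genes were. No member was at least 2-fold lower, where 0.537% of all genes were. At 1.5-fold, Fgf1 was again the single member that was higher (3.54% of all genes) and Fgf12 the single one that was lower (3.11% of all genes). Lowering the floor to the 40th percentile put Etv4 and Fgf12 past 2-fold lower. A floor at the 60th percentile left no member that was 1.5-fold apart in either direction, but Fgf12 was then not measured and the Fgf1 ratio was a bound.

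**Figure D2:**
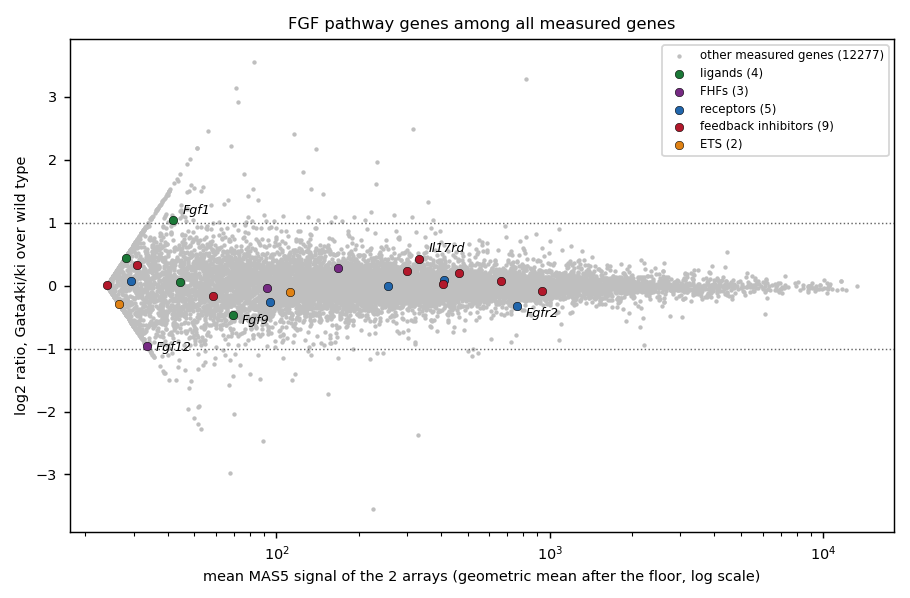
Log2 ratio of Gata4ki/ki over wild type against the mean MAS5 signal (log scale) for the 12300 measured genes, with the 23 FGF pathway genes coloured by role and the others grey; dotted lines mark 2-fold. Fgf1 lies at 1.05 among the dim genes, where the grey cloud is widest, and the brighter receptors and feedback inhibitors lie between -0.33 and 0.42.

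The width of that cloud depends on brightness. Across probe sets with 1 gene symbol, the robust SD of the log2 ratio was 0.38 for mean signals under 100, 0.22 between 100 and 400, and 0.13 for brighter ones. It mixes probe noise with real differences and is no replicate error. Of the 23 measured members, 12 had a mean signal under 100, 5 lay between 100 and 400 and 6 above 400.

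GATA motifs near the start sites of these genes were looked up because the mutant allele alters a GATA factor. RefSeq promoter windows of build GRCm38.p6, running from 250 bases before to 50 after a start site, were matched for 28 of the 38 genes and gave 36 windows. The GATA spellings AGATAA or AGATAG, and TGATAA or TGATAG, were searched on both strands, with overlapping matches each counted. They occurred in 4 of the 36 windows (11.1%), those of Fgf3, Fgf9, Fgf23 and Spred3, and in 29.8% of all 32851 windows of that length. The ETS spelling CCGGAAG, the kind of site that ETV factors bind, occurred in 1 window, that of Fgfrl1 (2.78%), against 8.86% of all windows. A match is a description of the letters and is not evidence of binding. The windows of the measured genes with a match are printed 5′ to 3′ along the gene's strand, with each match in capitals; TTATCT and CTATCT are AGATAA and AGATAG read on the opposite strand.
Fgf9 (chr14:58072436-58072735, plus strand): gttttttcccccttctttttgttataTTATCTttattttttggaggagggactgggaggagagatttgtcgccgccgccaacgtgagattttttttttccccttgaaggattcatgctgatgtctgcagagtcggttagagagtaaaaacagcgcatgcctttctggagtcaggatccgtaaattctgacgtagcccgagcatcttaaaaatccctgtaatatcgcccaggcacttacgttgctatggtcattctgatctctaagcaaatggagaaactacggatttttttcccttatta
Fgf3 (chr7:144838362-144838661, plus strand): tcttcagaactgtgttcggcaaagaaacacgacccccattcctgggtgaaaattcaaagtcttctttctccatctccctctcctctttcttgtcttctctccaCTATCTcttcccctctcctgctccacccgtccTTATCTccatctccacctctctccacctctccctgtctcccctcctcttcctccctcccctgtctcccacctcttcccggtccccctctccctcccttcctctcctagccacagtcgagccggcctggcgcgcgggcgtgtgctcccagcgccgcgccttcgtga
Spred3 (chr7:29168598-29168897, minus strand): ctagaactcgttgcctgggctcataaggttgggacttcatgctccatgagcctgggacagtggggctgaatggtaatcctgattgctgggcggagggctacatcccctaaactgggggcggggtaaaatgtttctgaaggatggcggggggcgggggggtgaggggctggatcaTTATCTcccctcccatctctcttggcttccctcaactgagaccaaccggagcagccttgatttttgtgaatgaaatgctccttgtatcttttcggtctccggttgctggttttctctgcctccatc
Fgfrl1 (chr5:108693979-108694278, plus strand): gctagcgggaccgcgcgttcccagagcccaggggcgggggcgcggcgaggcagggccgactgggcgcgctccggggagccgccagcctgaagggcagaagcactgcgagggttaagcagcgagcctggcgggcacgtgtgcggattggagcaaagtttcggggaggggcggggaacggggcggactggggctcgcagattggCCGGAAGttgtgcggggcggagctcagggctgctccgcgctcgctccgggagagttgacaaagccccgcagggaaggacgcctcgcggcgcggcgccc
The match lies 224 bases before the start site in Fgf9, 76 before it in Spred3 and 48 before it in Fgfrl1. Fgf3 holds matches 147 and 115 bases before its start site. Between the arrays these 4 genes differed in direction. Fgf9 had a negative ratio, Fgfrl1 and Spred3 had positive ratios, and Fgf3 had a positive bound.

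Among the secreted ligands, Fgf9 and Fgf1 stood on opposite sides of 0. Fgf9 encodes the ligand that is required for testis development in XY mice. Its brightest probe set gave 81.5 in wild type and 59.0 in Gata4ki/ki, a log2 ratio of -0.47 or 1.38-fold lower. A second probe set gave 58.2 and 53.0, a ratio of -0.13, so both probe sets were dimmer in the mutant and neither reached 1.5-fold. The robust SD at that brightness was 0.38. On the same arrays Wnt4 gave 829.1 and 680.7, and Sox9 gave 59.3 and 72.1. Gonad and mesonephros were not separated, so fewer cells of a type and less RNA per cell cannot be told apart in any of these ratios.

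Fgf1 encodes a ligand that can activate all FGF receptors. It gave 29.1 in wild type and 60.3 in Gata4ki/ki, a ratio of 1.05 or 2.07-fold higher. A second probe set went from 21.6, under the floor, to 25.9, which is a bound of 0.11, and the third gave 1.79 and 0.905. The excess at 2-fold therefore rests on 1 of the 3 probe sets, and at a signal just above the floor. Among all measured genes with a mean signal under 100, 2.14% were at least 2-fold higher. The ratio of Fgf1 was 0.67 when a pseudocount of 24.0 replaced the floor and 0.58 as the median over its measured probe sets, 1 of them a bound. With the floor raised to the 60th percentile (48.5), its wild-type signal was under the floor, and the ratio became a bound of at least 0.31.

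The other measured secreted ligands were Fgf18, of the FGF8 subfamily, and Fgf3, of the FGF7 subfamily. Fgf18 gave 43.7 and 45.3, a ratio of 0.05. Fgf3 was above the floor on 1 of 3 probe sets and on the Gata4ki/ki array alone, with 16.5 and 32.8, a bound of at least 0.45. That probe set carries the suffix for probes that may also read other transcripts, and the other Fgf3 probe sets gave 21.4 and 14.2, and 7.12 and 14.1.

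The remaining 14 secreted ligands stayed under the floor on both arrays. They were Fgf2, the whole FGF4 subfamily (Fgf4, Fgf5 and Fgf6), Fgf7, Fgf10, Fgf22, Fgf8, Fgf17, Fgf16, Fgf20 and the endocrine ligands Fgf15, Fgf21 and Fgf23. Among them, FGF8 and FGF10 are ligands of epithelial and mesenchymal exchange in many embryonic organs. Fgf8 gave 0.425 and 0.574, and Fgf10 gave 1.22 and 1.55. Fgf20, of the same subfamily as Fgf9, gave 1.13 and 0.841. With Fgf14, an intracellular factor, these genes had 25 probe sets with signals from 0.250 to 20.2, so no ratio can be given for them, and expression in a small share of the cells was not detectable at this brightness. Fgf5 was the closest to the floor, with 18.6 and 20.2.

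The FGF homologous factors Fgf11 to Fgf14 carry the FGF name but stay inside the cell, where they bind voltage-gated sodium channels. Fgf13 gave 153.0 in wild type and 184.9 in Gata4ki/ki, a ratio of 0.27. Fgf11 gave 93.8 and 91.3, a ratio of -0.04. Fgf12 gave 46.6 and 20.4, and because the Gata4ki/ki value is under the floor its ratio is at most -0.96. Of these 3 genes Fgf12 was the one past 1.5-fold, and 7.64% of all measured genes with a mean signal under 100 were at least that much lower. Its other 2 probe sets stayed under the floor, where values have no reliable order. They gave 12.52 and 22.88, and 13.46 and 4.10, so the first was higher in Gata4ki/ki and the second lower. With the floor at the 40th percentile, a signal of 13.7, the first lies above it on the Gata4ki/ki array alone. The lower Fgf12 value therefore rests on the brightest probe set. The fourth of these genes, Fgf14, was not above the floor on any of its 4 probe sets. FGF homologous factors are known mainly from neurons; of 6 genes listed for neurons and neural crest that are on the array 5 were measured, with a median log2 ratio of 0.11 and a summed signal of 314.3 and 321.4, and Sox10 was not above the floor. Over the 4 of them above the floor on both arrays the median was -0.18. Chga at -0.90 and Phox2a at -0.47 were below 0, and Th at 0.11 and Erbb3 at 0.20 above it. Elavl4 exceeded the floor on the Gata4ki/ki array alone, a bound of at least 0.28. The part of those cells in the Fgf12 value was not tested.

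All receptor genes were above the floor on both arrays, and none reached 1.5-fold on its brightest probe set. Fgfr2, a receptor of both epithelial and mesenchymal cells through its splice forms, gave 846.9 in wild type and 674.7 in Gata4ki/ki, a ratio of -0.33. A second probe set gave 230.3 and 200.9, a ratio of -0.20, so both measured Fgfr2 probe sets were dimmer in the mutant. Both have suffixed names, and with suffixed probe sets left out Fgfr2 was not measured. The third gave 11.4 and 10.1, under the floor. The robust SD of ratios at signals above 400 was 0.13, and Fgfr2 had the lowest ratio of the 7 member probe sets in that range. Most genes listed for the mesonephric and Müllerian ducts and tubules were also dimmer, with 8 of 10 measured genes below 0 and a median of -0.21. Over all 12300 measured genes 5980 were below 0. In the duct list Cdh6 at 0.43 and Lhx1 at 0.21 were above 0. The summed signal of that list was 5505 and 4333, with Amhr2 as the largest part at 2620 and 1838. Emx2, at 1034 and 884.7, is also listed for gonadal somatic cells. The part of the ducts in the Fgfr2 value was not tested.

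Fgfr3, a receptor best known from cartilage, gave 103.2 and 86.4, a ratio of -0.26 on the single measured probe set of 2. Fgfr1, the main receptor of mesenchymal cells, gave 256.9 and 256.3, a ratio of 0.00, and its 2 other probe sets disagreed in sign. They gave 226.0 and 204.0, a ratio of -0.15, and 41.1 and 59.4, a ratio of 0.53. Fgfr1 thus showed no direction that its probe sets shared. Fgfr4 was dim, with 28.6 and 30.0 on the 1 measured probe set of 5, a ratio of 0.07. Fgfrl1, a receptor-like protein without a kinase domain, gave 397.8 and 423.5, a ratio of 0.09, while 160.6 and 183.5 on the second probe set make a ratio of 0.19. The 5 receptor genes had a median log2 ratio of 0.00, with 3 below and 2 above 0.

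**Figure D3:**
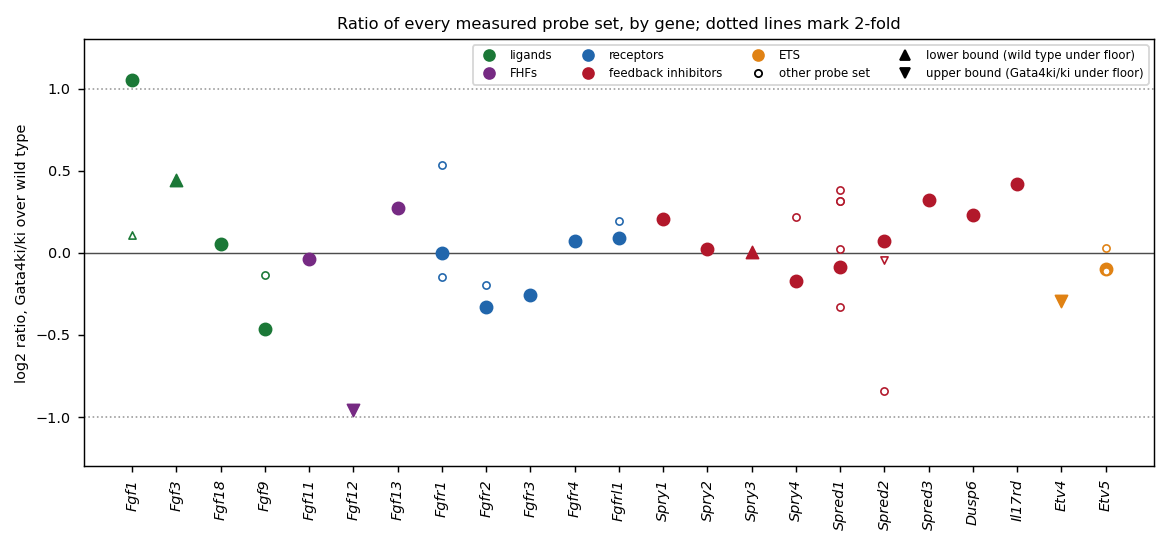
Log2 ratio of Gata4ki/ki over wild type for each of the 39 measured probe sets of the 23 measured genes, with the brightest probe set of a gene filled and the others open; triangles are bounds and dotted lines mark 2-fold. Apart from Fgf1 at 1.05 and the bound of Fgf12 at -0.96, the filled points lie between -0.47 and 0.45, and the open points of Fgfr1, Spred1 and Etv5 lie on both sides of 0.

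The feedback inhibitors had a median log2 ratio of 0.07, and none reached 1.5-fold. Over all 12300 measured genes 6320 were above 0, and of the 9 inhibitors 7 were, Spry3 among them as a bound of 0.00. The highest ratio belonged to Il17rd, also called Sef, a membrane protein that dampens FGF receptor signalling. It gave 288.2 in wild type and 386.0 in Gata4ki/ki, a ratio of 0.42 or 1.34-fold higher, where the robust SD at that brightness was 0.22. Its second probe set, with 15.9 and 22.3, stayed under the floor. Dusp6, the phosphatase that removes activating phosphates from ERK, gave 276.5 and 323.9, a ratio of 0.23 on its single probe set. Both genes are close readouts of FGF signalling, and their values in the mutant were above those of wild type by less than 1.5-fold.

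Sprouty proteins block the step from receptor to RAS and ERK. Spry1, which restrains budding of the kidney duct, gave 433.5 and 499.7, a ratio of 0.20 on its single probe set. Spry2 gave 403.0 and 409.5, a ratio of 0.02. Spry4 gave 62.0 and 55.1, a ratio of -0.17, whereas 38.8 and 45.0 on the other measured one make a ratio of 0.22. The 2 measured Spry4 probe sets therefore disagreed in sign. Spry3 gave 20.7 and 24.1 and exceeded the floor on the mutant array only, a bound of 0.00.

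Spred proteins recruit neurofibromin to inactivate RAS at the membrane. Spred1 gave 963.2 in wild type and 906.0 in Gata4ki/ki, a ratio of -0.09. Its 5 other measured probe sets had ratios from -0.33 to 0.38, with 4 of them above 0. Spred2 gave 646.9 and 679.5, a ratio of 0.07, but another probe set gave 76.2 and 42.5, a ratio of -0.84, and the last measured one a bound of -0.04. Spred3 gave 27.6 and 34.6, a ratio of 0.32 at a signal close to the floor. In all, 9 member genes had 2 or more measured probe sets, and in 5 of them, Fgfr1, Spry4, Spred1, Spred2 and Etv5, the ratios pointed both ways.

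Etv4 and Etv5 encode ETS transcription factors that FGF signalling induces. Etv5 gave 116.0 and 108.2, a ratio of -0.10, while its other probe sets gave 59.1 and 60.3, a ratio of 0.03, and 26.9 and 24.9, a ratio of -0.11. Etv4 gave 29.5 and 14.5, which bounds its ratio at -0.29 or less because the Gata4ki/ki value is under the floor, and lowering the floor to the 40th percentile, a signal of 13.7, makes it -1.02. Its second probe set gave 7.57 and 5.56. Of the readouts that FGF signalling induces, Dusp6, Il17rd, Spry1 and Spry2 thus had ratios above 0, and Spry4, Etv4 and Etv5 below 0, on their brightest probe sets.

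Other genes of the pathway were read from 5 lists. Of their 60 genes represented on the array 56 were measured, with a median log2 ratio of 0.03. Of these, 1 gene was at least 2-fold higher (0.846% of all measured genes) and none 2-fold lower (0.537%), while 2, Gpc4 and Hs3st1, were at least 1.5-fold lower (3.11%). The gene past 2-fold was Sdc4, syndecan 4, a cell-surface carrier of heparan sulphate, with 41.5 and 106.3, a ratio of 1.36, whereas 53.7 and 44.0 on the other probe set make a ratio of -0.29. The 2 Sdc4 probe sets thus pointed opposite ways.

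**Figure D4:**
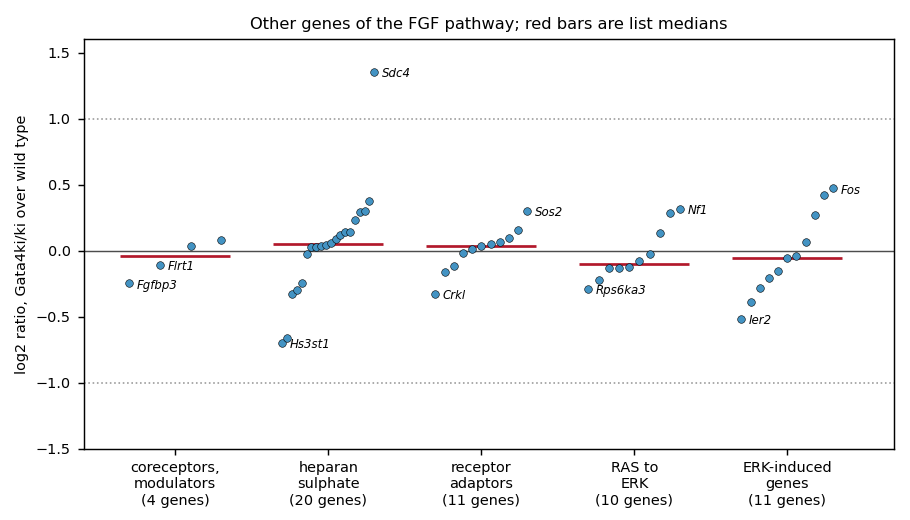
Log2 ratio of Gata4ki/ki over wild type for the measured genes of 5 further FGF pathway lists, 1 point per gene from its brightest probe set, with the list median as a red bar and dotted lines at 2-fold. The medians lie between -0.10 and 0.05, and Sdc4 at 1.36 is the single gene past 2-fold.

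Heparan sulphate genes supply the chains that FGF and receptor need to meet. The 20 measured genes had a median of 0.05, with 14 above 0 (6320 of 12300 over all measured genes). Gpc4, the membrane-anchored heparan sulphate carrier glypican 4, gave 563.0 and 356.2, a ratio of -0.66, while 158.2 and 105.0 on the second probe set make a ratio of -0.59. Both Gpc4 probe sets were thus over 1.5-fold dimmer in the mutant, at signals well above the floor. Hs3st1, a heparan sulphate sulphotransferase, gave 63.4 and 39.0, a ratio of -0.70. The chain-building enzymes Ext1, Ext2 and Extl3 had ratios of 0.12, -0.24 and 0.30, and the sulphotransferases Hs2st1 and Hs6st2 had 0.03 and 0.38. Sulf1 and Sulf2, which remove sulphate groups, had 0.09 and 0.14 on their brightest probe sets.

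Of the coreceptors and extracellular modulators, Kl, Klb and Fgfbp1 were not above the floor, so the coreceptors of the endocrine FGFs were under it together with their ligands. The 4 measured genes had a median of -0.04, and the largest ratios were those of Fgfbp3 at -0.25, Flrt1 at -0.11 and Flrt2 at 0.08. Flrt2, a transmembrane protein that can bind FGF receptors, gave 1885 and 1996.

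Receptor adaptors, which couple the receptor to RAS, had a median of 0.04 over 11 genes. Their largest ratios were those of Crkl at -0.33, Sos2 at 0.30 and Grb2 at -0.16, but second probe sets of Crkl and Grb2 had the opposite sign, at 0.23 and 0.52. Ptpn11, the phosphatase SHP2, gave 1409 and 1447. The 10 measured genes from RAS to ERK had a median of -0.10, with 7 below 0 (5980 of 12300 over all measured genes). Nf1, which encodes neurofibromin, had a ratio of 0.32, Rps6ka3, an ERK-activated kinase, one of -0.29 and Braf one of 0.29. Rps6ka3 was lower on all 3 measured probe sets, the second giving 356.8 and 200.7, a ratio of -0.83, and the third a bound of -0.41. Its brightest probe set gave 1170 and 957.7, and stayed within 1.5-fold. The measured probe sets of Braf pointed both ways, from -0.38 to 0.29.

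Genes induced through ERK by many growth factors went both ways. The 11 measured genes had a median of -0.06, with 7 below 0 (5980 of 12300 over all measured genes). Fosl1 was not above the floor. Ier2, an immediate early gene, gave 286.4 and 200.1, a ratio of -0.52. Fos gave 22.6 and 33.3, a bound of at least 0.47, and Dusp5, another ERK phosphatase, 30.4 and 40.7, a ratio of 0.42. Egr1 and Ccnd1 had ratios of -0.04 and -0.06 on their brightest probe sets, and the lowest of the 3 Ccnd1 ratios was -0.42.

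The tissue on both arrays fits its label by marker genes, and the signals of some marker lists differed between the arrays. Gata4, whose protein rather than transcript the allele alters, gave 240.8 in wild type and 286.2 in Gata4ki/ki, so it cannot check the labels. All 5 genes listed for gonadal somatic cells, all 6 for germ cells and all 10 for ducts and tubules were measured. Their summed signals were 4845 and 4552, 1945 and 1882, and 5505 and 4333 in wild type and Gata4ki/ki. Emx2 is counted in both the gonadal somatic and the duct sum, and Amhr2 makes up the largest part of the duct sum. Supporting cell genes summed to 3302 and 1987, with 4 of 7 at least 2-fold lower (0.537% of all measured genes). Of that list Rspo1 at 0.34 and Bmp2 at 0.42 were above 0. Steroidogenic genes summed to 110.0 and 635.6, with 3 of 4 at least 2-fold higher (0.846%). The ratios of Star, Cyp11a1 and Cyp17a1 were bounds, with the wild-type signal under the floor. Hsd3b1, above it on both arrays, gave 66.1 and 297.0. Macrophage genes summed to 1115 and 1847, with 7 of 8 measured and Itgam not above the floor, and endothelial genes to 2364 and 2026. Erythroid genes summed to 16468 and 17838, most of it from globins, but 4 of the 7 (Alas2, Slc4a1, Klf1 and Hemgn) were at least 2-fold higher and their median log2 ratio was 1.03. Median log2 ratios were -0.16 for Sertoli genes (4 of 6 measured, Amh and Dhh not above the floor), 0.34 for coelomic epithelium and 0.04 for stroma. Among the Sertoli genes Cst9 was a bound of at most -0.49. The 3 above the floor on both arrays had a median of 0.17, with Dmrt1 at -0.71 below 0. In the coelomic list Upk3b at -0.23 was below 0, and Msln was not above the floor. Skeletal muscle genes had a median of -0.36 over 4 measured genes, with Myod1, Myog and Acta1 not above the floor. Their summed signal was 489.5 and 486.0, and Tnni1 had a ratio of 0.23. Metanephric kidney genes had a median of 0.38 over 4 measured genes, with Hoxd11 and Nphs1 not above the floor. Of those 4 ratios 2 were bounds, and Hoxa11 went the other way, at -0.59 or less. Signal at the 3' end over that at the 5' end came to 2.16 and 2.47 for beta-actin and to 0.90 and 1.10 for Gapdh. The part of any of these differences in the FGF values was not tested.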

How the data were processed

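RNA of gonad-mesonephros complexes was hybridised to 1 array per genotype. The authors deposited a linear signal intensity for each probe set. MAS5 is the tool named by the submitters' processing notes; its version, detection calls, filters and genome build are not stated in the labels. The mean signal after trimming 2% at each end was 150.0 on both arrays, so they had been scaled to a common level; MAS5 signals are least precise when low, and the number of arrays limits the precision.

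Gene symbols came from the platform's table (34958 probe sets with 1 symbol, 932 with several, 9211 with none), and control probe sets were left out. Signals under the floor (50th percentile over both arrays) were set to it before log2, and the probe set of highest mean log2 signal stood for its gene. No test was possible.

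The members, lists, markers and alternatives were chosen with earlier results of these data known. Named genes were every member, any pathway gene 2-fold apart and the 3 largest absolute ratios of each pathway list; others were named after their values were seen. The 6 alternatives were a floor at the 40th or 60th percentile, a pseudocount, the median over probe sets, no suffixed probe sets, and quantile normalization. The procedure was tested on simulated data with changes placed only in genes well above the floor. That test therefore does not cover changes in dim genes or bounds. The tools were Python 3.11.15, numpy 2.4.6, pandas 2.3.3, scipy 1.17.1 and matplotlib 3.10.9.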

Additional observations from a re-analysis of the deposited data

How the results depend on the processing

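The median log2 ratio of the measured FGF genes stayed between 0.01 and 0.06 under all 6 alternatives. Under those alternatives in which they were measured, which for some genes were 4 or 5 of the 6, 18 of the 23 genes moved by less than the robust SD of genes of their brightness. The ratios of 4 genes (Fgfr1, Spry4, Spred1 and Spred2) changed sign under at least 1 alternative. The counts rest on dim genes. With the floor at the 40th percentile (a signal of 13.7), 26 members were measured, with Fgf4, Fgf5 and Fgf23 added; 2 were then at least 2-fold lower (Etv4 and Fgf12), 2 at least 1.5-fold lower and 2 at least 1.5-fold higher (Fgf1 and Fgf3). With the floor at the 60th percentile (48.5), 16 were measured and the counts of members 2-fold higher, 1.5-fold higher and 1.5-fold lower were 0 each. At that floor Fgf12 was not measured and the Fgf1 ratio was a bound, so these counts do not show smaller differences. The count 2-fold higher was 0 with the pseudocount and with the median over probe sets, which also left 0 at 1.5-fold higher. Without suffixed probe sets, 19 members were measured and 0 were 1.5-fold lower, since Fgf12 was then not measured. Fgf3, Fgfr2 and Fgfrl1 were not measured in that setting either. Of single genes, Fgf1 ranged from 0.31 to 1.06, Fgf3 from 0.45 to 0.99 and Etv4 from -1.02 to -0.29. The values 0.31, 0.45 and -0.29 are bounds set by the floor. Fgfr1 reached 0.53 without suffixed probe sets and Spred1 0.17 with the median over probe sets. The medians of the secreted ligands and of the ETS factors, over 4 and 2 genes at the main floor, ranged from -0.08 to 0.26 and from -0.56 to -0.10. Their genes changed with the floor. The 60th percentile dropped Fgf3, Fgf18 and Etv4, and the 40th added Fgf4, Fgf5 and Fgf23. These ranges thus mix changed gene sets with changed values. No paired analysis was possible because each group has 1 array. No replicate could be left out for the same reason.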
